A study of Sus scrofa with 2 samples.

Results

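The genes described here are FAM111A, CD9, NDST3, FAM110D, EPHB1 and A4GALT. They were looked up by symbol among the 21301 genes listed for pig thymocytes, and all 6 were found. They had been picked because their transcripts were more frequent in invariant natural killer T (iNKT) thymocytes than in total thymocytes. The ratio between the libraries is therefore given as a description and supports nothing. The study compared 1 library of total thymocytes with 1 library of iNKT thymocytes, both pooled from the same 2 untreated pigs of mixed breed, 22 weeks of age. Magnetic beads had enriched the iNKT cells, and flow sorting then kept the live cells for either library. Cells of 1 library are not replicates, so no comparison below has a test, and every interval is a 95% interval that covers counting error only. Where a gene had a count of 0, the share or level allowed is that of 3 counts. An effect of bead selection or sorting on a transcript cannot be told apart from a difference between the cell types.

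iNKT cells are T cells with a nearly fixed antigen receptor that recognises lipids presented by CD1d. They arise in the thymus from double-positive thymocytes and depend on the transcription factor PLZF, encoded by ZBTB16. As background to the states used here, EGR2 is induced by antigen receptor signalling, KLF2 is a transcription factor needed for mature thymocytes to leave the thymus, and S100A4 is a calcium-binding protein of effector-like T cells. Of the followed genes, CD9 encodes a tetraspanin, a membrane protein that organises integrins and other surface proteins. EPHB1 encodes a receptor tyrosine kinase for ephrin-B ligands. NDST3 and A4GALT encode Golgi enzymes of glycan synthesis: NDST3 removes acetyl groups from and sulfates the growing heparan sulfate chain, and A4GALT makes the glycolipid globotriaosylceramide. FAM111A encodes a protease that acts at DNA replication forks and restricts some viruses, and FAM110D belongs to a small family with centrosomal members.

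After cells with under 500 genes or over 10% mitochondrial counts were left out, 8026 total thymocytes and 11273 iNKT thymocytes remained. Their median depth was 2414.5 and 4210 unique molecular identifiers (UMIs, 1 per captured transcript) per cell. Because depth differed, cells were also thinned at random to 2000 UMIs each, which 4774 total thymocytes and 10965 iNKT thymocytes were deep enough for. ZBTB16 checked the labels: it was found in 6233 of 11273 cells (55.3%) of the iNKT library and in 9 of 8026 cells (0.112%) of the total library. The iNKT library also held a cluster of 146 cells led by genes of B, plasma, antigen-presenting and cytotoxic cells (cluster 10). ZBTB16 was found in 42 of those cells (28.8%). A further cluster of 53 cells was led by genes that include C12orf75 and CD4, and ZBTB16 had 2 UMIs there (cluster 11). The libraries shared 41 cell barcodes.

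Among the surface proteins, CD9 had 5668 UMIs in iNKT thymocytes, or 106 CPM (UMIs per 1000000 UMIs of the library, 104 to 109), and 66 UMIs in total thymocytes, or 2.31 CPM (1.79 to 2.94). The ratio was 46.0 (36.1 to 59.6). Of the 66 UMIs, 25 came from 2 cells, and without those the ratio was 74.1 (54.5 to 103). EPHB1 had 2644 UMIs in iNKT thymocytes (49.6 CPM) and 7 UMIs in total thymocytes (0.245 CPM), a ratio of 203 with a wide interval of 98.2 to 504. That ratio was 543, from 1 UMI in total thymocytes, with at most 5% mitochondrial counts, 133 without cycling cells and 102 with equal weight per cell. Equal weight also moved CD9 to 79.9. In iNKT thymocytes EPHB1 was below CD9, NDST3, FAM111A and FAM110D in CPM, so the wide ratio came with a level near 0 in total thymocytes.

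Among the glycan enzymes, NDST3 had 5934 UMIs in iNKT thymocytes (111 CPM, 109 to 114) against 99 UMIs in total thymocytes (3.47 CPM, 2.82 to 4.22). The ratio was 32.1 (26.4 to 39.6), and 21.2 with at most 5% mitochondrial counts. A4GALT was the least abundant of the group, with 644 UMIs (12.1 CPM) against 65 UMIs (2.28 CPM) and a ratio of 5.31 (4.11 to 6.97). Among the intracellular proteins, FAM111A had 6518 UMIs (122 CPM, 119 to 125) against 32 UMIs (1.12 CPM, 0.766 to 1.58), a ratio of 109 (77.3 to 160). FAM110D had 3535 UMIs (66.4 CPM) against 57 UMIs (2.0 CPM), a ratio of 33.3 (25.6 to 44.0), and 50.2 with equal weight per cell. By comparison, 1041 of 9437 genes with at least 100 UMIs (11.0%) were at least 2-fold higher in the iNKT library and 1567 (16.6%) at least 2-fold lower. With trimmed mean of M-values (TMM) scaling, which shifted every log2 ratio by 0.31, 1406 genes were higher and 1156 lower. Since the genes were chosen by this ratio, nothing is read from that share.

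No transcript of the group marked all iNKT cells. FAM111A was found in 33.7% of iNKT thymocytes, NDST3 in 34.4%, CD9 in 30.6%, FAM110D in 25.2%, EPHB1 in 17.9% and A4GALT in 5.49%. After thinning, the shares were 19.9%, 18.2%, 18.0%, 12.3%, 8.83% and 2.33% in the same order. In thinned total thymocytes they ran from 0.0209% for EPHB1 to 0.733% for NDST3. At full depth, 8846 iNKT thymocytes (78.5%) held a UMI of at least 1 of the genes and 5033 (44.6%) of at least 2, compared with 241 (3.0%) and 20 (0.249%) of total thymocytes. For a measure of free RNA in the total library only, 2662 of its double-positive-like cells, named by CD4, CD8A, CD8B, RAG1 and CD1E, were used. Their median depth was only 1289.5 UMIs. They held no UMI of CD9, NDST3 or FAM110D, which allows a share of up to 0.113% of cells. They held 2 UMIs of FAM111A, 1 of A4GALT and 5 of EPHB1. The whole total library held only 7 (EPHB1) to 99 (NDST3) UMIs of each gene, so its free RNA could carry little of them. These counts therefore cannot show how far free RNA added to the shares in the iNKT library, which was not tested.

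**Figure D1:**
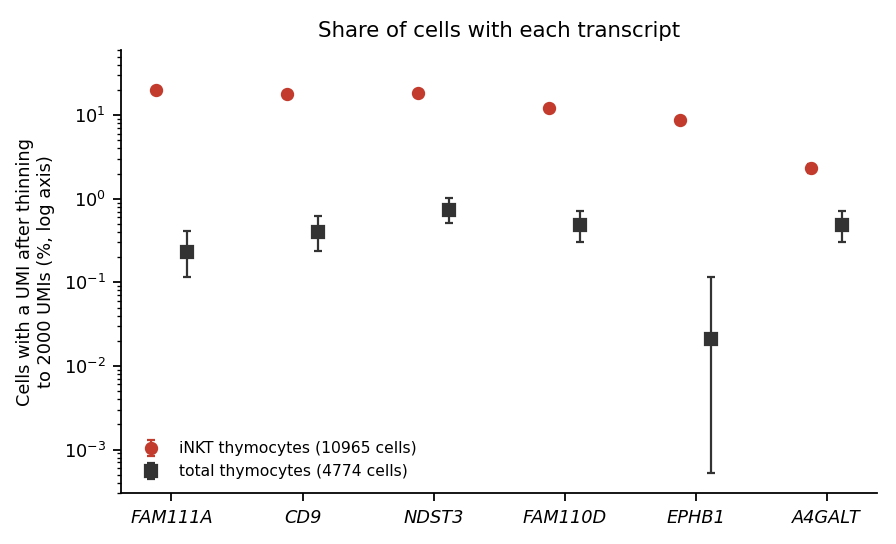
Share of cells with a UMI of each gene after thinning to 2000 UMIs, in percent on a log axis, for iNKT thymocytes (circles, 10965 cells) and total thymocytes (squares, 4774 cells), with exact 95% intervals that are smaller than the symbols for the iNKT library. A4GALT shows the narrowest gap between libraries and EPHB1 the widest interval, since 1 thinned total thymocyte held it.

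The spread of each transcript over cells was compared with an even one. If each thinned iNKT cell had the same level, the counts would follow a Poisson distribution with a variance equal to the mean. The variance over the mean was 1.38 for FAM111A and 1.40 for CD9, which were found in fewer cells (19.9% and 18.0%) than the 23.1% and 21.2% that an even spread of the same UMIs would give. It was 1.14 for NDST3, 1.15 for EPHB1, 1.05 for FAM110D and 1.01 for A4GALT. The single iNKT cells with most UMIs held 13 of FAM111A, 13 of NDST3, 10 of CD9, 6 of EPHB1, 5 of FAM110D and 3 of A4GALT. The excess of the variance grows with the mean, so these values do not rank the genes.

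CD9 followed S100A4. In iNKT thymocytes with no S100A4 UMI after thinning (7189 cells), CD9 stood at 69.1 CPM (66.4 to 71.9). It was 135 CPM (127 to 144) in the 1404 cells with 1 S100A4 UMI and 209 CPM (201 to 218) in the 2372 cells with at least 2. The ratio of the last bin to the first was 3.03 (2.86 to 3.21), the 5th highest of 7891 genes with at least 200 UMIs. The share of thinned cells with CD9 went from 12.3% to 22.6% and 32.6% over the same bins. A4GALT (1.53), FAM110D (1.44), FAM111A (1.36) and EPHB1 (1.34) were higher in the S100A4-rich cells by less, with intervals above 1. For NDST3 the levels were 110 CPM without S100A4 and 109 CPM with at least 2 UMIs, a ratio of 0.988 (0.924 to 1.05). Thus 5 of 6 genes had an interval above 1 in this split, as did 15.8% of the 7891 genes.

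KLF2 split the genes in a similar way, with FAM111A nearer to CD9. CD9 went from 70.3 CPM in the 4430 cells without KLF2 to 111 CPM with 1 UMI and 151 CPM in the 3718 cells with at least 2, a ratio of 2.15 (2.02 to 2.29). FAM111A went from 90.5 to 131 and 159 CPM, a ratio of 1.76 (1.66 to 1.86). They ranked 10th and 48th of 7891 genes. FAM110D (1.37) and EPHB1 (1.2) were also higher with KLF2, and the interval for A4GALT (1.13, 0.943 to 1.36) included 1. NDST3 was lower, at 118 CPM without KLF2 and 103 CPM with at least 2 UMIs (0.868, 0.816 to 0.922). An interval above 1 was found for 4 of 6 genes here and for 17.5% of all genes, and an interval below 1 for 1 of 6 and for 18.0%.

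S100A4 and KLF2 were then combined, a split added after the single ones had been seen. CD9 was at 45.8 CPM (42.6 to 49.1) in cells with neither, 90.8 CPM with KLF2 alone, 143 CPM with S100A4 alone and 198 CPM (191 to 207) with both. FAM111A had 81.0 CPM with neither, 136 CPM with KLF2 alone, 119 CPM with S100A4 alone and 161 CPM with both. CD9 was thus higher with S100A4 alone than with KLF2 alone, and FAM111A the reverse, with intervals that did not overlap. NDST3 stayed between 105 and 124 CPM in all 4 classes.

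ZBTB16 itself told the genes apart little. In cells with at least 2 ZBTB16 UMIs (876 cells) compared with none (7369 cells), the ratio was 1.06 for FAM111A, 0.971 for FAM110D, 1.15 for EPHB1 (1.0 to 1.32) and 1.13 for A4GALT, all with intervals that included 1. NDST3 was 139 CPM against 105 CPM, a ratio of 1.32 (1.21 to 1.43). That value depended on the random thinning that sorted the cells: it was 1.17 with another seed and 1.08 at 1000 UMIs. CD9 was lower, at 97.5 against 110 CPM (0.887, 0.801 to 0.981), and at 0.765 with the other seed. An interval above 1 was found for 8.66% of genes in this split and an interval below 1 for 3.18%.

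EGR2 was present in few cells, with 58 of the thinned iNKT cells holding at least 2 UMIs. FAM111A was at 63.4 CPM (36.2 to 103) there, 77.3 CPM (65.1 to 91.0) in the 382 cells with 1 UMI and 124 CPM (121 to 127) without EGR2. The ratio was 0.511 (0.292 to 0.830), and 1.88% of genes had an interval below 1. The other intervals included 1, while 4.75% of all genes had an interval above it. A4GALT had 0 UMIs in these 58 cells. Its exact Poisson interval, given here in place of the level of 3 counts, reached 14.6 CPM. Its level without EGR2 was 12.2 CPM, and nothing is read from the count of 0 in so few cells.

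In cells with S phase transcripts, 4 of the genes had lower CPM and NDST3 did not. Cells with at least 5 UMIs of 27 S phase genes (246 cells) were compared with 6497 cells with none. NDST3 was at the same level, 114 CPM, in both (ratio 1.0, 0.872 to 1.14). FAM111A was 62.1 CPM against 129 CPM (0.481, 0.400 to 0.573), CD9 was 49.6 against 110 CPM (0.450, 0.366 to 0.547) and FAM110D was 34.2 against 67.7 CPM (0.505, 0.393 to 0.640). EPHB1 was 31.8 against 50.9 CPM (0.624, 0.480 to 0.798), and the interval for A4GALT (0.774) included 1. An interval below 1 was thus found for 4 of 6 genes and for 17.0% of 7870 genes. The S phase cells were deeper, with a median of 7985 UMIs against 4204, so UMIs per cell were set beside CPM. FAM111A had 0.524 UMIs per cell in the S phase cells and 0.601 in those with none, CD9 0.419 and 0.513, and FAM110D 0.289 and 0.315. EPHB1 turned, with 0.268 against 0.237 UMIs per cell, and NDST3 had 0.959 against 0.529. The part of depth in the CPM difference was not tested.

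With at least 3 UMIs of 32 G2/M genes (153 cells), FAM111A (0.554), CD9 (0.706) and FAM110D (0.448) again had intervals below 1, as did 11.1% of genes. None of the 6 had an interval above 1, compared with 20.1% of genes. NDST3 was at 110 CPM in the cells with these UMIs and in those without. The intervals for EPHB1 (0.854) and A4GALT (0.963) included 1. These cells were also deeper, with a median of 8092 UMIs against 4228. Per cell, FAM111A had 0.588 UMIs in the cells with G2/M transcripts and 0.587 in those without, CD9 had 0.641 and 0.502, and FAM110D had 0.261 and 0.323. The interval for CD9 rested on the mitochondrial limit, and its ratio was 0.921 in cells with at most 5% mitochondrial counts.

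**Figure D2:**
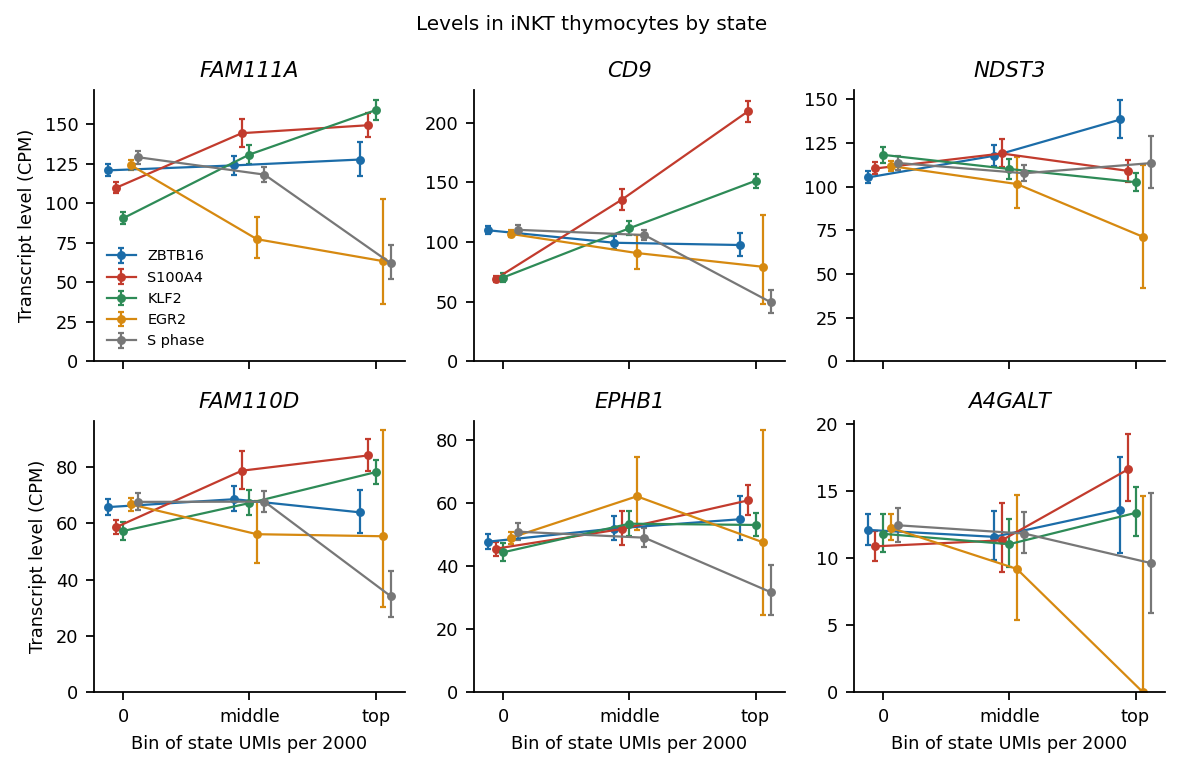
Level of each gene in CPM in thinned iNKT thymocytes, by bins of UMIs of ZBTB16, S100A4, KLF2, EGR2 (0, 1, 2 or more) and of the S phase genes (0, 1 to 4, 5 or more), with 95% Poisson intervals. The S100A4 line climbs for CD9 from 69.1 to 209 CPM and stays flat for NDST3, whereas the S phase line drops for FAM111A and not for NDST3.

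The iNKT library was clustered without the 6 genes, and 10 of its 13 clusters had at least 200 cells. CD9 had the widest range, from 232 CPM (221 to 244) in cluster 1, led by S100A4, S100A6 and S1PR1, to 32.4 CPM (27.8 to 37.7) in cluster 5, led by TOX2, PSAT1 and CCR9. That is a 7.15-fold range (6.10 to 8.42). NDST3 had its highest level, 177 CPM (166 to 189), in that same cluster 5, where FAM111A was at 57.5 CPM. FAM111A was highest in cluster 0, led by FUT7, PRKX and TGFB2, at 187 CPM (178 to 196). It was lowest in cluster 3, led by CCL4, FCER2 and CD69, at 37.6 CPM (32.4 to 43.3), a 4.97-fold range.

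Cluster 3 was also the lowest for NDST3 (57.9 CPM), FAM110D (26.8 CPM) and A4GALT (7.36 CPM). EPHB1 differed from them there, at 60.1 CPM (53.5 to 67.2), close to its highest value of 66.4 CPM in cluster 1. EPHB1 ranged 2.08-fold (1.72 to 2.51), with its lowest value of 32.0 CPM in cluster 8, led by MCM5, MCM2 and CDT1. FAM110D ranged 3.34-fold, NDST3 3.06-fold and A4GALT 2.63-fold. The ranges and their order depended on the number of principal components. With 15 in place of 30 the range was 11.6-fold for CD9, 9.18-fold for EPHB1, 8.82-fold for FAM111A, 4.87-fold for FAM110D, 3.85-fold for NDST3 and 2.17-fold for A4GALT. In cluster 10, NDST3 was at 19.3 CPM (9.62 to 34.5) and EPHB1 at 12.3 CPM, and cluster 11 had 0 UMIs of EPHB1 in 53 cells but 14 UMIs of NDST3.

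**Figure D3:**
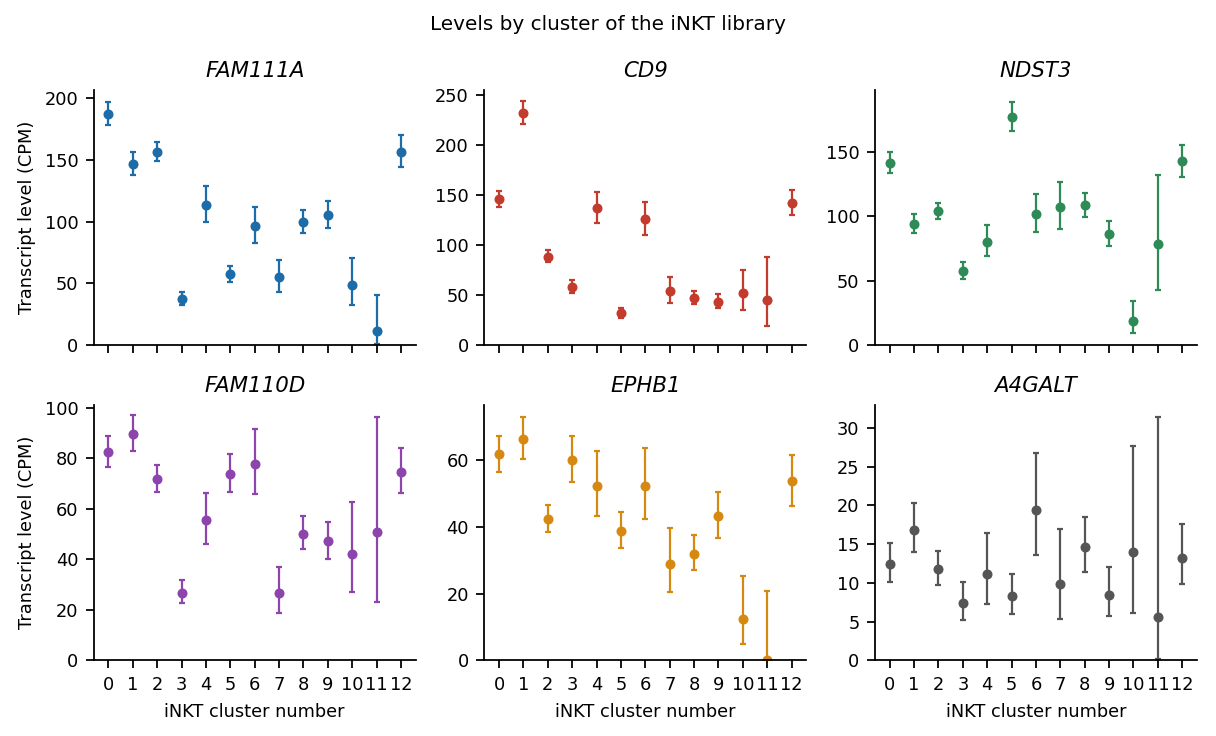
Level of each gene in CPM in the 13 clusters of the iNKT library, numbered 0 to 12, with 95% Poisson intervals; the vertical axes differ between panels and start at 0. CD9 is highest in cluster 1 and NDST3 in cluster 5, where CD9 is lowest.

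For each gene, the genes with the most similar pattern over the 13 clusters were found among 7891, by Pearson's r of log2(CPM + 10). The clusters share 1 library and differ in depth, and the r values are a description. FAM111A was closest to FZD6 (r = 0.958), MSMB and SPECC1, and CD9 to SGPP2 (r = 0.880), S100A6 and KLF11. NDST3 was closest to MPP5 (r = 0.957), PIK3R3 and ARNT, and FAM110D to UNC119 (r = 0.961), KBTBD3 and FAM98C. A4GALT was closest to SYTL3 (r = 0.877), S100A6 and RNPEPL1. EPHB1 was closest to EPHB6 (r = 0.970), which encodes an Eph receptor without kinase activity, and CAMSAP2 was also among its 3 closest. That likeness leaned on clusters 10 and 11: without them r was 0.742 for EPHB1 and EPHB6, but 0.971 for FAM110D and UNC119 and 0.930 for CD9 and SGPP2. Over the 13 clusters r was 0.797 between CD9 and S100A4 and 0.312 between FAM111A and KLF2, and without the same 2 clusters 0.854 and 0.857.

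Detection in the same cell was counted for the 15 pairs in 10965 thinned iNKT thymocytes. FAM111A and CD9 were found together in 534 cells, where 392 would be expected from the product of their shares, a ratio of 1.36 (1.25 to 1.48). CD9 and FAM110D were together in 294 cells (1.21, 1.08 to 1.36) and CD9 and EPHB1 in 208 (1.19, 1.04 to 1.37). CD9 and NDST3 shared fewer cells than expected, 310 against 360 (0.860, 0.767 to 0.961). The intervals of the other 11 pairs included 1. The highest of those by point value was CD9 with A4GALT at 1.22 (0.921 to 1.58) from 56 cells.

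Within cells without S100A4, FAM111A and CD9 still met more often than expected, at 1.5 (1.32 to 1.70), and within cells with S100A4 at 1.17 (1.04 to 1.31). For CD9 and FAM110D the ratio was 1.36 (1.14 to 1.61) without S100A4 and 1.02 (0.866 to 1.19) with it. The ratio for FAM111A and CD9 was 1.33 in cells without ZBTB16 and 1.43 in cells with it. Counting all 6 genes, 4760 thinned cells held none, 4138 held 1, 1672 held 2, 343 held 3, 48 held 4 and 4 held 5. Independent detection would give 4601, 4377, 1647, 309, 29.6 and 1.31. Cells with none and cells with 2 or more exceeded that number, and cells with 1 fell short of it.

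**Figure D4:**
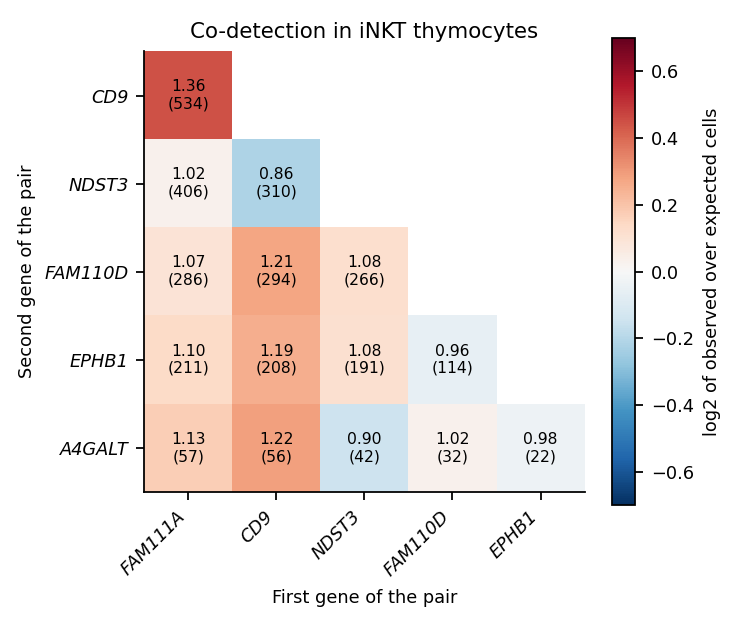
Cells with both genes of a pair over the number expected from independent detection, in 10965 thinned iNKT thymocytes, with the number of cells in brackets and the colour giving the log2 ratio. FAM111A with CD9 is the highest at 1.36, and CD9 with NDST3 the lowest at 0.86.

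In the total library the transcripts were held by different cells. Of 14 clusters, 2 held most NDST3: cluster 0, with CD4 single-positive-like and naive mature-like genes such as CCR4, CD40LG and CCR7, had 45 of 99 UMIs (18.3 CPM), and cluster 1 had 31 (13.9 CPM). CD4 itself was not among the genes above the rest in cluster 0. Cluster 1 was mixed, with genes of naive mature T cells, interferon response, regulatory T cells and both CD4 and CD8 single-positive cells above the rest. CCR7 was found in 59 of 81 cells with NDST3 (72.8%), and CD40LG in 36 (44.4%). Of 2156 total thymocytes of 3000 to 6500 UMIs, a range chosen after the fact to match the depth, 32.4% had CCR7 and 9.83% had CD40LG. Read the other way, NDST3 was found in 29 of 203 cells with both CCR7 and CD40LG (14.3%, 9.78 to 19.9) and in 30 of 1114 with CCR7 but not CD40LG (2.69%, 1.82 to 3.82). Their median depths were 3890 and 3358.5 UMIs. ZBTB16 was found in 2 of the 81 cells (2.47%) and FOXP3 in 0, where 0.325% and 1.21% of the cells of 3000 to 6500 UMIs had them.

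FAM111A and CD9 were held by other cells. FAM111A was held by 23 total thymocytes, of which 13 had S100A4 (56.5%), 13 had TNFRSF4, 6 had FOXP3 (26.1%), the defining factor of regulatory T cells, and 3 had ZBTB16. In the depth-like cells 3.80% had S100A4, 7.61% had TNFRSF4, 1.21% had FOXP3 and 0.325% had ZBTB16. Of 48 total thymocytes with FOXP3, 6 had FAM111A (12.5%, 4.73 to 25.2) and 5 had CD9 (10.4%, 3.47 to 22.7), whereas none had NDST3 or FAM110D, which allows up to 6.25%. In the iNKT library FOXP3 had 3 UMIs in all, and none of those 3 cells had FAM111A or CD9. CD9 was held by 34 total thymocytes, 15 of them with S100A4.

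S100A4 alone did not define these cells. Of 63 cells with S100A4 in the gamma-delta-like cluster 7, led by RHEX and SOX13, 0 had FAM111A, which allows up to 4.76%, and 3 had CD9. Of 71 cells with S100A4 elsewhere, 13 had FAM111A (18.3%, 10.1 to 29.3) and 12 had CD9 (16.9%, 9.05 to 27.7), at a lower median depth (3594 against 5071 UMIs). Cluster 11, which also had gamma-delta genes above the rest, was counted as elsewhere and held 6 of the 71 cells. FAM111A and CD9 were found together in 9 total thymocytes, where independence would give 0.0974. Of these 9 cells, 6 had S100A4, 6 had TNFRSF4, 4 had IL2RA, 3 had FOXP3 and 1 had ZBTB16. Their median depth was 5240 UMIs, above the 2414.5 of the whole library, and the part of depth and of doublets in this count was not tested.

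CD9 had further sources. In 1 cell of cluster 11, led by HBM, HBB and ETV5, there were 14 CD9 UMIs, and in 1 cell of cluster 3, led by S100A12 and S100A8, there were 11. These are the 2 cells set aside above, and the clusters held CD9 in 4 and 3 cells. Cluster 11 had 4 of 5 gamma-delta genes above the rest (SOX13, RHEX, GATA3, BLK) and 1 of 3 erythroid genes. After thinning, 79.3% of its cells had at least 5 S phase UMIs. FAM110D was most frequent in cluster 3, where 17 of 212 cells had it (8.02%) at a median depth of 8459 UMIs. Genes of early thymocytes (DNTT, PTCRA, KIT, NOTCH1) stood above the rest in cluster 3 along with the 2 S100 genes. So did RAG1, RAG2, EPCAM, HLA-DRA and SLA-DQB1. After thinning, 81.9% of the cells of cluster 3 had at least 5 S phase UMIs and 56.2% at least 3 G2/M UMIs. NDST3 and FAM110D were found together in 5 cells, where independence would give 0.545, and all 5 had CCR7. These 5 cells lay in clusters 0 and 1. Their median depth was 4819 UMIs, above the 2414.5 of the whole library, and the part of depth in this count was not tested.

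A4GALT was the most widely spread, with 18 UMIs in cluster 1, 12 in cluster 0 and 11 in the gamma-delta-like cluster 7. In the 43 cells of cluster 12, which held B, plasma and antigen-presenting genes, it had 3 UMIs. EPHB1 was held by 7 total thymocytes, 5 of them double-positive-like, and 1 of the 7 had ZBTB16. Of the 9 total thymocytes with ZBTB16, 3 had FAM111A, 2 had NDST3, 1 had CD9, 1 had EPHB1 and none had FAM110D or A4GALT. Most total thymocytes that held FAM111A, CD9, NDST3, FAM110D or A4GALT were without a ZBTB16 UMI. In the iNKT library ZBTB16 was found in 55.3% of cells, at a higher depth.

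**Figure D5:**
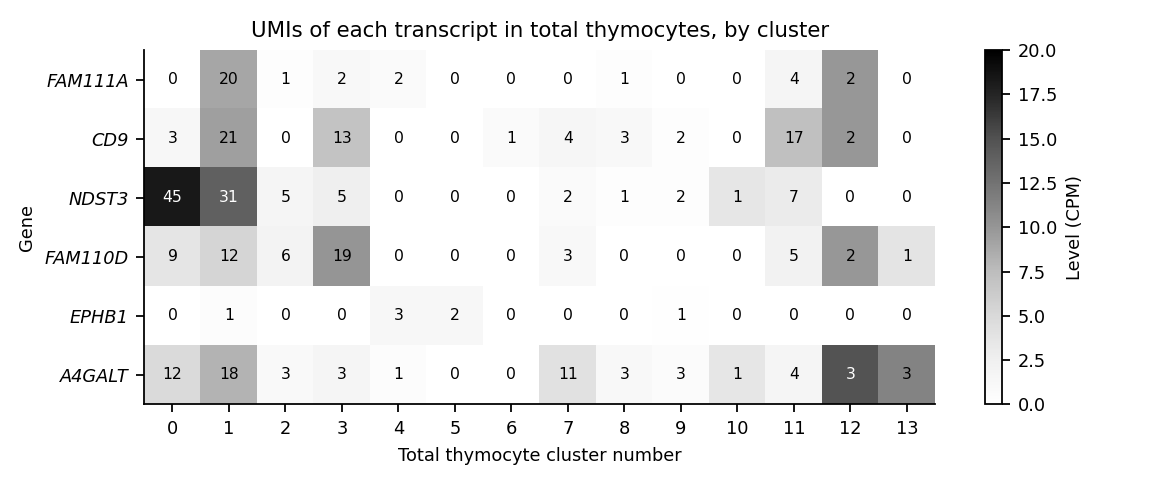
UMIs of each gene in the 14 clusters of total thymocytes (numbers), with shading by level in CPM. NDST3 lies mainly in clusters 0 and 1, FAM111A in cluster 1, and CD9 also in clusters 3 and 11, where single cells hold most of it.

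The other genes of each pathway were counted in the same way. A gene counted as measured with at least 100 UMIs over both libraries. Over all measured genes, 11.0% were at least 2-fold higher in the iNKT library and 16.6% at least 2-fold lower. Of 21 measured tetraspanins and partners besides CD9, 4 were higher and 6 lower by that much, with a median log2 ratio of −0.10, compared with −0.23 over all genes. With CD9 the counts were 5 and 6, and TMM scaling made them 9 and 3. The balance of the list thus changed sides with the scaling, as did that over all genes. TSPAN5 was 20.3-fold, TSPAN7 6.36-fold and TSPAN13 6.09-fold higher in iNKT thymocytes, while IGSF8, a direct partner of CD9, was 149.6-fold lower (90.3 to 268). CD151 was 10.6-fold and TSPAN4 9.84-fold lower. The abundant CD81 (1.70), CD63 (1.89), CD37 (1.82) and CD53 (2.29) differed by less than CD9.

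Of 18 measured genes of heparan sulfate synthesis besides NDST3, 5 were at least 2-fold higher and 4 lower, where all genes gave 11.0% and 16.6%, and the median log2 ratio was −0.21. NDST1, the widely expressed relative of NDST3, was 3.73-fold higher but at 3.53 CPM in iNKT thymocytes, and NDST2 was at 9.37 CPM. NDST4 was not found in either library. In UMIs, which a 3′ kit counts once per transcript whatever its length, NDST3 was at 111 CPM and thus above its 3 relatives in the iNKT library. How well the 3′ end of each of these genes was annotated was not checked. GLCE was 4.85-fold higher, SRGN, the core protein serglycin, 3.68-fold higher, and SDC1 42.1-fold higher from 157 UMIs against 2 (11.5 to 351). HPSE, the enzyme that cleaves heparan sulfate, was 65.7-fold lower, HS6ST1 11.7-fold lower and GPC2 5.89-fold lower. B3GAT3 (1.93) and PAPSS1 (0.795) differed by under 2-fold.

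Of 5 measured Eph receptors and ephrins besides EPHB1, none was at least 2-fold higher and 2 were lower, where all genes gave 11.0% and 16.6%, and the median was −0.77. With TMM scaling EPHA1 (1.96) passed. EPHB6 was abundant in both libraries, at 133 CPM in iNKT and 156 CPM in total thymocytes (0.850), a direction that reversed with TMM scaling. EFNA2 had 3 UMIs in the iNKT library against 1000 in total thymocytes. EFNB3, a ligand of the EphB class, was 9.23-fold lower and EFNB1, another, was at 0.587. EFNB2, a further ephrin-B ligand, had 2 UMIs in iNKT thymocytes and 0 in the other library.

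Of 25 measured genes of glycosphingolipid synthesis and breakdown besides A4GALT, 9 were at least 2-fold higher and 1 was lower, where all genes gave 11.0% and 16.6%. Their median log2 ratio was 0.60, and −0.23 over all genes. Without cycling cells, 6 were higher and 1 lower, where all genes gave 9.23% higher and 14.7% lower. B4GALNT1, the synthase of GM2 and GD2 gangliosides, was 23.6-fold higher and the ceramide synthase CERS6 6.53-fold. The lysosomal genes GLA (2.55), which encodes the enzyme that degrades the product of A4GALT, PSAP (2.34), ARSA (2.37) and SMPD1 (3.61) were also higher. ST3GAL5, which starts ganglioside synthesis from lactosylceramide, was 3.05-fold lower. ST8SIA1 (1.39) and CERS2 (1.90) differed by under 2-fold.

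Of 15 measured genes around FAM111A and the replication clamp besides FAM111A itself, 8 were at least 2-fold lower and none was higher, where all genes gave 16.6% and 11.0%, and the median log2 ratio was −1.07. Cycling cells made up 19.9% of total and 2.89% of iNKT thymocytes, and without them 1 gene of this list was lower and 1 higher, with a median of 0.00. Over all genes without cycling cells, 14.7% were lower and 9.23% higher, with a median of −0.26. PCNA, the clamp that FAM111A binds, was 3.79-fold lower, TOP2A 12.2-fold and POLD1 4.29-fold lower, while TOP1 (0.769) and RFC2 (0.744) differed by under 2-fold. The paralog FAM111B had 18 UMIs in iNKT and 6 in total thymocytes. In the FAM110 family, FAM110A (2.69-fold lower) and the centrosomal gene CSPP1 (2.60-fold lower) did not share the direction of FAM110D. FAM110C had 8 UMIs in iNKT thymocytes and 0 in total thymocytes. Of the listed genes under 100 UMIs, SULF1 had 48 UMIs in iNKT and 1 in total thymocytes, PTGFRN 37 and 3, and GPC6 11 and 0. TSPAN33 had 3 in iNKT and 46 in total thymocytes, EFNA5 1 and 23, SULF2 0 and 17, and EFNA1 5 and 15. On the Sscrofa11.1 RefSeq assembly, used for gene order only, 24 protein-coding genes flank the 6 genes, 2 on each side. Of the 11 with at least 100 UMIs, 1 was at least 2-fold higher in iNKT thymocytes: DTX4, next to FAM111A, at 3.57 from 180 and 27 UMIs. The other 10 lay between 0.526 (MSL2, near EPHB1) and 1.31 (PACSIN2, near A4GALT).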

How the data were processed

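Pig thymocytes were profiled with the 10x Chromium 3′ assay (v3.1), per the labels' protocols. The authors deposited raw UMI counts for each gene in each cell, made with Cell Ranger 3.1.0, per the file headers. Seurat 3.1 is also listed per the submitters' processing notes. The genome build is not given in the sources used here. Total thymocytes had 29723207 UMIs in 9112 barcodes, and iNKT thymocytes 54457966 UMIs in 12097 barcodes.

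Symbols were usable for 15513 genes. The filter was 500 genes per cell or more, with 10% or less of the counts from 13 mitochondrial genes. Scrublet (expected rate 0.08) marked 0 of 8026 and 1 of 11273 cells, so it had not worked and no doublet was removed. UMIs were summed over cells and divided by their total (CPM), with exact Poisson intervals. Ratios have exact conditional binomial intervals and shares have Clopper-Pearson intervals. Clusters came from 2000 variable genes without the 6 genes, 30 principal components, 15 neighbours and Leiden resolution 1 (scanpy 1.11.5, igraph 0.11.9). They were called by a cell type only with at least 3 of its markers. TMM factors came from edgeR 4.0.16. The ratio, thinning and co-detection steps were tested on simulated data.

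The 6 genes, the lists and the comparisons were chosen with earlier results of these data known. Named by rule were the 6 genes, the state genes, the 3 genes most like each over clusters of at least 50 cells, and, from each pathway list, the 4 genes with most UMIs and all genes at least 4-fold different, of which some under 100 UMIs are left out. A few genes that the rule or a cluster's leading genes would name are not reported here. Relatives, ligands, lysosomal genes, gene neighbours and the genes that describe total thymocytes were named after their values were seen. The joint S100A4 and KLF2 split and the classes of total thymocytes by gene were likewise added after seeing the data. So were the value without 2 CD9-rich cells, the fits without iNKT clusters 10 and 11 and the list counts without cycling cells. Alternatives were other cell filters, removal of the highest doublet scores, TMM scaling, equal weight per cell, other thinning, other clustering and leaving out cycling cells. Only cells of at least 2000 UMIs could be called cycling.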

Additional observations from a re-analysis of the deposited data

How the results depend on the processing

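Cells were split by single UMIs of a state gene, so a cell without one may still express it, and the intervals treat the split as fixed. Only 7 UMIs of EPHB1 and 32 of FAM111A set their levels in total thymocytes. Among the ratios of the 6 genes with an interval that excluded 1, no direction reversed under the alternatives run, and EPHB6 reversed with TMM scaling. No paired analysis was possible because each group is 1 library.

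The iNKT to total ratio left its interval in 10 of 48 alternatives, and the cause was not tested. At most 5% mitochondrial counts (2582 and 6017 cells kept) gave 30.9 for CD9, 21.2 for NDST3, 543 for EPHB1, from 1 UMI in total thymocytes, and 3.91 for A4GALT. TMM scaling gave 39.9 for NDST3. Equal weight per cell gave 79.9 for CD9 and 50.2 for FAM110D. Without cycling cells the ratio was 76.1 for FAM111A, 22.3 for NDST3 and 3.61 for A4GALT.

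The state ratios left their intervals in 16 of 276 alternatives. At most 5% mitochondrial counts gave 2.53 for CD9 by S100A4, 0.792 for NDST3 by KLF2, and 0.549 and 0.921 for CD9 by S phase and G2/M. Removal of the highest Scrublet scores gave 3.25 for CD9 by S100A4. Thinning to 1000 UMIs gave 1.08 for NDST3 and 1.21 for FAM110D by ZBTB16, 1.47 for FAM111A and 1.92 for CD9 by KLF2, and 0.385 for FAM111A and 1.33 for A4GALT by S phase. Another seed gave 0.765 for CD9 and 1.17 for NDST3 by ZBTB16, 1.65 for FAM111A by KLF2, 1.76 for EPHB1 by EGR2 and 0.430 for FAM111A by G2/M.

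Co-detection moved in 4 of 105 alternatives, all at 1000 UMIs: 0.918 for FAM111A with EPHB1, 0.745 for CD9 with NDST3, 0.637 for NDST3 with A4GALT and 1.35 for FAM110D with EPHB1. With 15 components the range over clusters was 8.82-fold for FAM111A, 11.6-fold for CD9, 3.85-fold for NDST3, 4.87-fold for FAM110D and 9.18-fold for EPHB1. The share of holders in total clusters other than 2, 4 and 5 was 88.9% for FAM110D and 28.6% for EPHB1. Those clusters held 53.5% of all total thymocytes, and clusters 3, 8 and 9 among them had RAG1 and RAG2 above the rest. At the 5% limit, with clusters made anew, the share was 100% for each. Only 21 UMIs of FAM110D and 1 of EPHB1 were left in total thymocytes there, so the value for EPHB1 is that of 1 cell. With at least 20 UMIs, 2 Eph and ephrin genes were higher and 4 lower, and the share over all genes at that limit is not reported here. TMM scaling gave 9 higher and 3 lower tetraspanins and partners, and 2 higher Eph and ephrin genes. Over all genes, too, more were higher than lower with that scaling. Without cycling cells, 1 Eph or ephrin gene and 1 of the FAM110 family were lower. Around the replication clamp, where PCNA and TOP2A had helped to call cells cycling, 2 were higher, FAM111A included, and 1 lower. Over all genes without cycling cells, 9.23% were higher and 14.7% lower.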
